A study of Triticum aestivum with 6 samples.

Results

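AVNLA and GLU-D1-2B are the seed storage protein genes followed here in filling wheat grain. They are the 2 identifiers, of 102602 in the count table, whose symbol was AVNLA, for an avenin-like protein, or GLU-D1-2B, for a glutenin subunit of high molecular weight. The rule reads symbols and no measured value, though earlier results of these data were known when it was set. RNA was sequenced from inferior grains of the bread wheat Triticum aestivum, cultivar Xinong 538, grown in the field. Inferior grains are the later-set grains of a spike, which usually fill less. By their titles, 3 libraries belonged to a group called SPD and 3 to a group called CK. All 6 carried the same entry for treatment, which names spermidine given from outside, a polyamine, and the same stage entry, which names days 8 and 16 after flowering. Neither abbreviation was spelled out, no label separated the groups by treatment or by day, and nothing stated how many plants or plots a library pooled.

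Wheat stores grain nitrogen mainly in prolamins, proteins rich in glutamine and proline that the starchy endosperm makes during filling and deposits in protein bodies. High molecular weight glutenin subunits join through disulfide bonds into the long polymers that give dough its elasticity, and the D1 in a gene's symbol names the D-subgenome locus. Avenin-like proteins are cysteine-rich relatives of the gliadins and the low molecular weight glutenins. Storage protein genes occur in families of similar copies, so reads of a near-identical copy may have been shared out among identifiers, and the values of a single symbol are uncertain to that extent. The RefSeq gene table for IWGSC CS RefSeq v2.1 listed avnla as a synonym of 1 gene and matched GLU-D1-2B to none.

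Total counts ran from 10561224 to 13088727 per library. On the first principal component of all tested genes, which held 35.4% of the variance, SPD replicate 3 lay at 140 and the other 5 libraries between -42.6 and -20.7. SPD replicate 1 lay at 105 on the next component, which held 21.3%, and the others between -42.4 and -0.0602. Entries for 28S and small-subunit ribosomal RNA took 0.000747% to 0.00423% of the counts, with the highest share in SPD replicate 3 and the lowest in SPD replicate 2. Group differences of the storage protein genes are therefore given with and without SPD replicate 3, and also without SPD replicate 1 where that changes a sign.

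AVNLA was among the most counted genes of the grain in every library. It had 38309, 40475 and 66285 counts in SPD replicates 1 to 3, and 46830, 38623 and 53608 counts in CK replicates 1 to 3. Scaled to CPM, the count relative to the library total and given per 1e+06 counts, that was 3131, 3117 and 6276 CPM in the SPD libraries and 3747, 3489 and 4096 CPM in the CK libraries. SPD replicates 1 and 2 lay below all 3 CK libraries and SPD replicate 3 above all of them, so the groups overlapped. Counting error alone was small beside these gaps. The exact binomial 95% interval, which covers counting error only, was 6230 to 6320 CPM in SPD replicate 3 and 4060 to 4130 CPM in CK replicate 3, the next library.

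AVNLA ranked 10, 11 and 9 among all identifiers in SPD replicates 1 to 3, and 8, 9 and 7 in CK replicates 1 to 3. By its mean of 3976 CPM over the 6 libraries it ranked 8 among all identifiers, and it was the highest of the 113 tested identifiers that carry a name in place of a locus code. CPM are not divided by transcript length, so these ranks order read counts and not numbers of transcripts. The next named gene was PINB, a puroindoline that acts in grain hardness, with 3276, 3650 and 3750 CPM in the SPD libraries and 3770, 3664 and 3415 CPM in the CK libraries. Their order was not the same in all libraries, as PINB had more counts than AVNLA in SPD replicates 1 and 2 and in CK replicates 1 and 2. In share of the library, AVNLA took 0.313%, 0.312% and 0.628% of the counts in SPD and 0.375%, 0.349% and 0.41% in CK. Its rank was thus nearly level across libraries while its share in SPD replicate 3 was 2.01 times the mean of the other SPD libraries.

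GLU-D1-2B was counted rarely. It had 31, 33 and 60 counts in SPD replicates 1 to 3, and 32, 54 and 58 counts in CK replicates 1 to 3. The levels were 2.53, 2.54 and 5.68 CPM in the SPD libraries and 2.56, 4.88 and 4.43 CPM in the CK libraries. SPD replicates 1 and 2 were the lowest of the 6 in CPM, but level with CK replicate 1, which had fewer counts than SPD replicate 2. SPD replicate 3 was the highest, and the groups overlapped. CK replicate 1 lay beside the low SPD libraries and not beside the other CK libraries.

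With so few counts, the error of each value was wide. The exact binomial 95% interval was 1.72 to 3.60 CPM in SPD replicate 1, 1.75 to 3.57 in SPD replicate 2 and 4.34 to 7.31 in SPD replicate 3. In CK replicates 1 to 3 it was 1.75 to 3.62, 3.66 to 6.36 and 3.36 to 5.73 CPM. The interval of SPD replicate 3 did not overlap that of either other SPD library or that of CK replicate 1. It did overlap those of CK replicates 2 and 3. The interval of CK replicate 1 did not overlap that of CK replicate 2. GLU-D1-2B ranked 36692, 36337 and 26116 in SPD replicates 1 to 3 and 36510, 28119 and 29159 in CK replicates 1 to 3. Between 39.5% and 59.2% of the identifiers detected in a library had fewer counts. Its neighbours in mean level among named entries were tRNA-Pseudo, at 3.91 CPM, and PCM, at 3.71 CPM, against 3.77 CPM for GLU-D1-2B itself. These differences were smaller than the SD between libraries of each group.

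**Figure D1:**
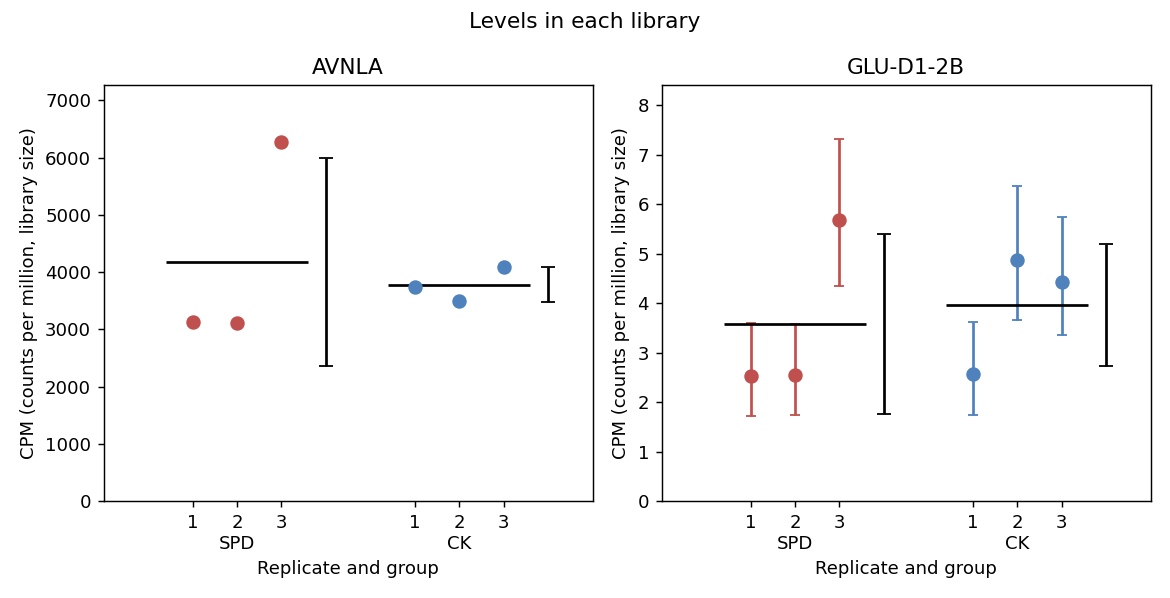
Levels of AVNLA (left) and GLU-D1-2B (right) in CPM for each SPD and CK replicate. Points are libraries with exact binomial 95% intervals (hidden by the points for AVNLA), horizontal lines are group means and the black bars beside them 1 SD to either side. In both panels SPD replicate 3 is the highest point, at 6276 and 5.68 CPM. SPD replicates 1 and 2 are the lowest, for GLU-D1-2B level with CK replicate 1.

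Neither storage protein gene differed between SPD and CK beyond the spread between libraries. AVNLA averaged 4175 ± 1820 CPM in SPD and 3777 ± 304 CPM in CK (SD, n = 3 each), a log2 fold change of 0.16 with a 95% interval of -0.36 to 0.68 (edgeR quasi-likelihood test on TMM-scaled counts, adjusted p = 0.997). As a fold that is 1.12, with an interval of 0.779 to 1.61 that leaves out a doubling. GLU-D1-2B averaged 3.58 ± 1.82 CPM in SPD and 3.96 ± 1.23 CPM in CK, a log2 fold change of -0.13 with an interval of -1.05 to 0.78 (edgeR, adjusted p = 0.997). Its fold of 0.911 had an interval from 0.484 to 1.72. Both genes passed the filter on low counts, and 0 of the 2 were called at an adjusted p of 0.05. Among all 50136 genes tested, 0 were called higher in SPD and 0 lower, a background of 0%. Without adjustment 1800 genes, or 3.59%, lay below 0.05 in edgeR, AVNLA and GLU-D1-2B not among them. The Wald test of DESeq2 called 3 genes, or 0.00599%, and neither AVNLA nor GLU-D1-2B was among these. In bulk RNA, fewer cells that express a gene and less of its RNA per cell cannot be told apart. As nothing in the labels says that libraries came from separate plants, these p-values measure the spread between these libraries only, which may be technical.

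The sign for AVNLA was set by SPD replicate 3. Without it the SPD mean was 3124 CPM and the log2 fold change was -0.28, with a 95% interval of -0.43 to -0.13. The unadjusted p was then 0.00139 in edgeR and the adjusted p 0.903, so the gene was not called there either. In that fit 2515 of 51943 genes lay below an unadjusted 0.05. With SPD replicate 1 or SPD replicate 2 left out instead, the log2 fold change of AVNLA was 0.34 or 0.33. GLU-D1-2B moved the same way, to -0.64 (95% interval -1.49 to 0.21) without SPD replicate 3. It lay at 0.07 without SPD replicate 1, 0.06 without SPD replicate 2 and 0.04 without CK replicate 2. Without CK replicate 1 it was -0.37, and without CK replicate 3 it was -0.04.

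**Figure D2:**
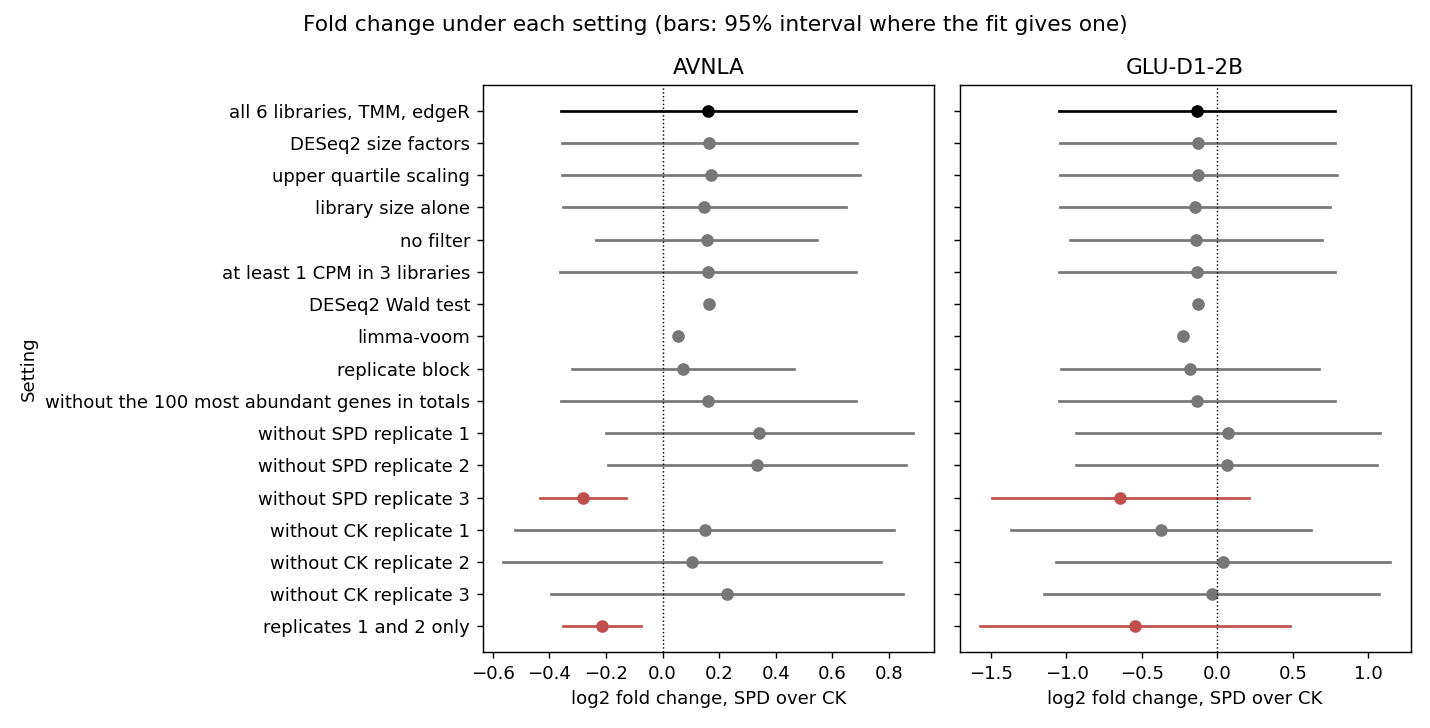
Log2 fold change, SPD over CK, of AVNLA (left) and GLU-D1-2B (right) under each setting, given on the vertical axis. Points are fitted values and bars 95% intervals, the fit of all 6 libraries is in black and those without SPD replicate 3 are in red. For AVNLA the red points lie at -0.28 and -0.21 with intervals below 0, while all other settings give positive values; for GLU-D1-2B every interval holds 0.

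The spread of AVNLA differed in size between the SPD libraries and the CK libraries. Its coefficient of variation was 43.6% in SPD and 8.06% in CK. On the log2 scale the SD was 0.581 in SPD and 0.116 in CK, and without SPD replicate 3 the remaining SPD libraries had an SD of 0.0044. Of the 18382 tested genes averaging 10 CPM or more, 94.5% had a smaller log2 SD than AVNLA among the SPD libraries and 35.4% among the CK libraries. Among the 21 tested genes within 2-fold of its mean level, AVNLA had the second highest coefficient of variation in SPD, where their median was 13.0%. In CK it ranked 7 of the 21, with a median of 4.77%. Those ranks are a description, with no test.

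GLU-D1-2B varied in both groups. Its coefficient of variation was 50.6% in SPD and 31.1% in CK, beside medians of 28.3% in SPD and 23.6% in CK for the 18504 tested genes within 2-fold of its mean level. The log2 SD was 0.671 in SPD and 0.502 in CK. It was 0.0032 in SPD without SPD replicate 3 and 0.098 in CK without CK replicate 1. With another library left out it was 0.821 or 0.824 in SPD and 0.559 or 0.657 in CK. Each of these is an SD of only 2 libraries. Leaving out the library farthest from the others lowers the SD in any case, so the low values are a description. The gene-wise estimate of edgeR for variation beyond counting, the biological coefficient of variation, was 34.7% for GLU-D1-2B and 23.0% for AVNLA. In common over all genes, of all levels, it was 26.5%. Among listed genes nearer to AVNLA in level it was 13.2% for PINB, 14% for PINA and 20.4% for WZCI. These gene-wise estimates are a description and are not the variance behind the quasi-likelihood intervals.

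**Figure D3:**
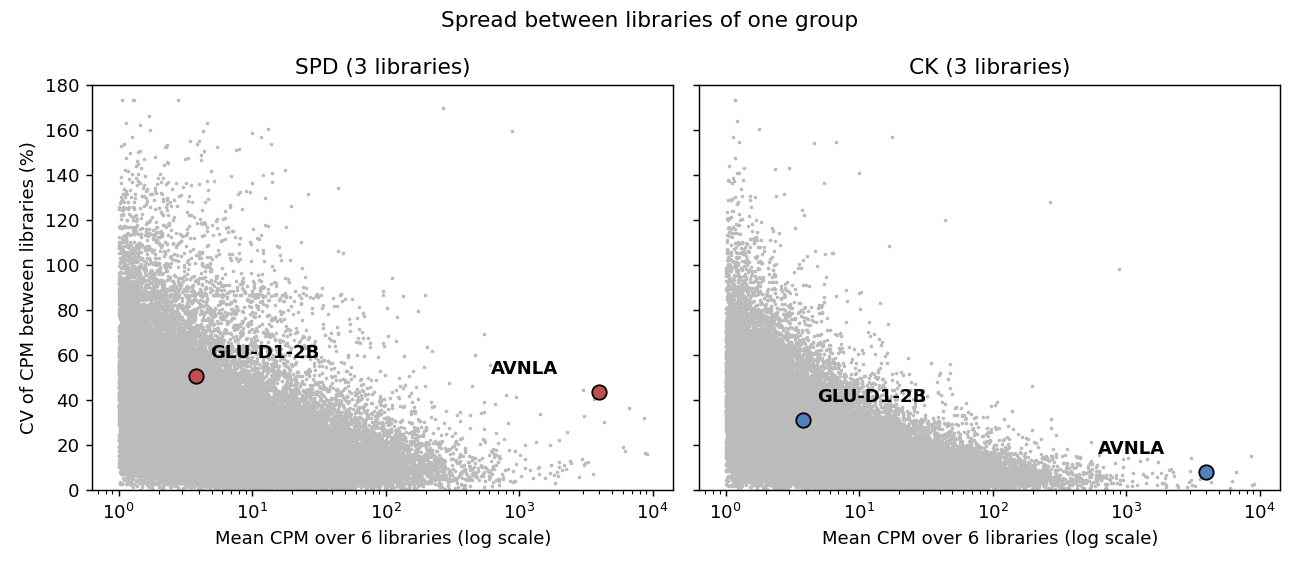
Coefficient of variation of CPM between the 3 SPD libraries (left) and the 3 CK libraries (right) against mean CPM over all 6 libraries on a log axis, for tested genes averaging 1 CPM or more. Grey points are genes and large points the storage protein genes. AVNLA lies at 43.6% in SPD, the second highest of the 21 genes within 2-fold of its level, and at 8.06% in CK.

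Other genes shared the high value of SPD replicate 3, though few abundant ones did so to the extent of AVNLA. AVNLA in SPD replicate 3 was at 1.80 times the median of the other 5 libraries. Of 46 genes averaging 1000 CPM or more, 4 reached that ratio, AVNLA included, and the median ratio was 1.1. Of the 18382 genes at 10 CPM or more, 409 or 2.23% reached it, and the median was 0.933. The ratio for GLU-D1-2B was 2.22, reached by 1858 or 3.91% of the 47573 genes at 1 CPM or more. The median behind it was the value of CK replicate 1, 2.56 CPM, while CK replicates 2 and 3 were at 4.88 and 4.43 CPM. Against the highest of the other libraries, SPD replicate 3 was at 1.16 times for GLU-D1-2B and 1.53 times for AVNLA. The 100 most counted genes of each library took 19.9% of the counts in SPD replicate 3, against 16.1% and 16.7% in SPD replicates 1 and 2 and 16.2%, 16.3% and 17.0% in CK replicates 1 to 3. With AVNLA taken out of those 100, the share in SPD replicate 3 was 19.3%, against 15.8% to 16.6% in the other libraries, so AVNLA held a minor part of that excess.

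The ratio of AVNLA to GLU-D1-2B does not depend on scaling, and it showed how far the 2 genes kept step. In counts, there were 1240, 1230 and 1100 of AVNLA for each of GLU-D1-2B in SPD replicates 1 to 3, and 1460, 715 and 924 in CK replicates 1 to 3. The SPD libraries were close to each other although both genes were about 2-fold higher in SPD replicate 3 (2.01 times the mean of the other SPD libraries for AVNLA and 2.24 times for GLU-D1-2B). The CK libraries spread around them on both sides. The mean log2 ratio was 10.2 ± 0.090 in SPD and 9.95 ± 0.523 in CK, a difference of 0.26 (two-sided exact permutation p = 0.4, or 1 after adjustment over the 8 sums and ratios computed, where 3 against 3 libraries allow no p below 0.1). The difference was 0.32 without SPD replicate 3, 0.03 without CK replicate 2 and 0.55 without CK replicate 1. The 31 to 60 counts of GLU-D1-2B limit the precision of every such ratio.

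Other endosperm genes did not all share the high value of AVNLA in SPD replicate 3. The puroindolines PINA and PINB, which act in grain hardness, summed to 6037, 6816 and 7268 CPM in the SPD libraries and 6930, 6686 and 6478 CPM in the CK libraries. Counts of the storage protein genes, nearly all of them AVNLA, were 0.519, 0.458 and 0.864 per puroindoline count in SPD and 0.541, 0.523 and 0.633 in CK. Only in SPD replicate 3, of these 6 libraries, did the ratio exceed 0.7. Mean log2 ratios were -0.76 ± 0.486 in SPD and -0.83 ± 0.147 in CK, a difference of 0.07 with all libraries and -0.21 without SPD replicate 3.

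The summed level of the starch synthesis genes was lowest in that library, though not that of each gene. They comprised AGP-L, AGP-S and AGA.1, for subunits of the enzyme that makes ADP-glucose, and WAXY and WSSI-2, for starch synthases bound to the granule or soluble. Their sum was 5086, 5528 and 4720 CPM in the SPD libraries and 5307, 5081 and 5488 CPM in the CK libraries, with the lowest value in SPD replicate 3. Of the 5 genes, AGP-L and WSSI-2 had their lowest level in SPD replicate 3, at 0.766 and 0.815 times the median of the other libraries. AGP-S and WAXY were at 0.913 and 0.889 times that median with a lower library elsewhere, and AGA.1 was at 1.28 times. For each count of these 5 genes there were 0.616, 0.564 and 1.33 counts of the storage protein genes in SPD and 0.707, 0.688 and 0.747 in CK. Mean log2 ratios were -0.37 ± 0.681 in SPD and -0.49 ± 0.061 in CK, so the group difference of 0.12 was far smaller than the SD of SPD, and it was -0.27 without SPD replicate 3.

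Inhibitors and thionins, defence proteins that also accumulate in the grain, were mixed. WZCI, a chymotrypsin inhibitor, had 2835, 2905 and 4898 CPM in SPD and 2180, 2918 and 2593 CPM in CK. Like AVNLA it was highest in SPD replicate 3, but its SPD replicates 1 and 2 lay inside the range of CK, where those of AVNLA lay below it. The count ratio of AVNLA to WZCI was 1.1, 1.07 and 1.28 in SPD and 1.72, 1.2 and 1.58 in CK. WZCI was chosen for this ratio after its values were seen, and the ratio is given as a description. In SPD replicate 3 the purothionins THI1.1 and THI1.2 were at 1.13 and 1.2 times the median of the other libraries, and IMA1, an alpha-amylase inhibitor, was at 0.988 times. XIPI, a xylanase inhibitor, was at 0.686 times, with 49.8, 116.7 and 80.0 CPM in SPD and 118.4, 192.3 and 91.2 CPM in CK, and TTHV was at 1.51 times.

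PDI, protein disulfide isomerase, helps to form disulfide bonds in storage proteins as they fold in the endoplasmic reticulum. It was the only tested gene of the 23 symbols listed for folding, secretion and regulation of storage proteins. Its levels were 2433, 2111 and 2542 CPM in SPD and 1983, 2160 and 2327 CPM in CK, a log2 fold change of 0.14 (SE 0.11, edgeR adjusted p = 0.997). The groups overlapped.

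**Figure D4:**
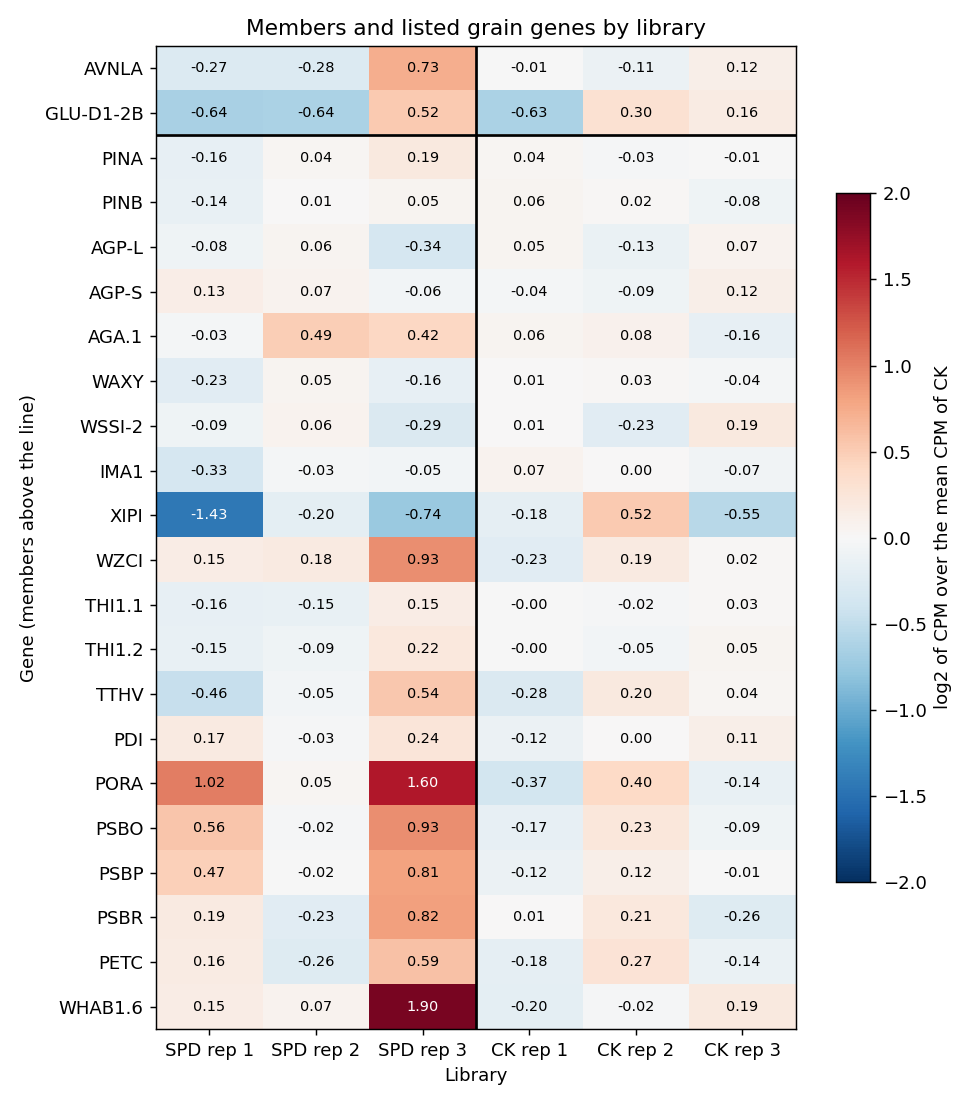
Log2 of CPM over the mean CPM of CK, for AVNLA and GLU-D1-2B (above the line) and the other 20 tested genes of the lists, in SPD (left) and CK (right) libraries. Colour and printed number give the same value. SPD replicate 3 is at 0.73 for AVNLA, 0.52 for GLU-D1-2B, 0.93 for WZCI and -0.34 for AGP-L.

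Over all these lists, 20 genes other than AVNLA and GLU-D1-2B were tested, and 0 were called in either direction, as among all genes tested. Without adjustment, edgeR p lay below 0.05 (0.0113 to 0.047) for the photosynthesis genes PORA, PSBO and PSBP, for WZCI and for XIPI. XIPI was lower in SPD and the others higher. Among all tested genes 3.59% lay below 0.05 without adjustment. SPD and CK levels overlapped in all 20 on the TMM scale, while 9.48% of all tested genes had groups that did not overlap. SPD replicate 3 was the highest of the 6 libraries in 12 of the 20 and the lowest in 2. All 6 photosynthesis genes were among these 12. The same counts over all tested genes were not taken. Median log2 fold changes were 0.015 for the 2 puroindolines, -0.09 for the 5 starch synthesis genes and -0.0090 for the 6 inhibitors and thionins. For the 6 photosynthesis genes the median was 0.51. The same median over all genes tested was 0.0048. The list of storage proteins held 41 symbols, of which AVNLA and GLU-D1-2B were the ones that the table carried. Lists were matched by exact symbol, and only 113 of the 50136 identifiers tested carried a name in place of a locus code. Storage protein genes under a locus code would not have been found.

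Photosynthesis genes mark green pericarp, a tissue that whole grains hold beside the endosperm, and they also peaked in SPD replicate 3. All 6 listed genes that were in the table were tested, with positive fitted values and a median log2 fold change of 0.51. Their summed level was 624.4, 438.4 and 876.5 CPM in the SPD libraries and 448.7, 552.2 and 429.2 CPM in the CK libraries. SPD replicate 1 had the second highest sum and the second lowest AVNLA level. None of the 6 photosynthesis genes was at 0 in any library. The least counted of them, with 8 to 29 counts, was WHAB1.6, for a light-harvesting protein. Their part in the values of AVNLA and GLU-D1-2B was not tested.

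The named genes with the pattern most like AVNLA across the 6 libraries were GSTZ1, UBA3 and TTHV. Likeness was the root mean square difference of log2 CPM, each gene centred on its own mean, over the 68 named identifiers with at least 10 CPM and a count in every library. It was 0.169 for GSTZ1, a glutathione transferase of the zeta class, 0.197 for UBA3, a ubiquitin-activating enzyme, and 0.222 for TTHV, a thionin. A flat profile would have been 0.344 from AVNLA, and 25 of the 68 were closer than that. GSTZ1 had 29.8, 27.3 and 41.1 CPM in SPD and 31.6, 29.4 and 31.7 CPM in CK, so SPD replicate 3 was again the highest, by a smaller margin. Among all 18359 genes at that level, with or without a name, 120 were closer to AVNLA than GSTZ1 was.

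For GLU-D1-2B the most alike of 69 were TTHV at 0.253, PAL at 0.290 and AVNLA at 0.334, where a flat profile lay at 0.494. Of the 69, 32 were closer than the flat profile. Among all 18360 genes at that level, with or without a name, 21 were closer to GLU-D1-2B than TTHV was. Seen from AVNLA, the same 0.334 was hardly below the 0.344 of a flat profile. TTHV had 115.6, 153.3 and 231.3 CPM in SPD and 130.5, 182.7 and 163.3 CPM in CK, with CK replicate 1 below the other CK libraries as in GLU-D1-2B. PAL, phenylalanine ammonia-lyase, the entry enzyme of phenylpropanoid synthesis, had 7.93, 6.39 and 18.2 CPM in SPD and 8.00, 11.7 and 8.10 CPM in CK. TTHV was thus near both storage protein genes in pattern. These likenesses rest on 6 libraries, with SPD replicate 3 the highest in all of the genes named here as alike, and are given as a description.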

How the data were processed

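The authors deposited raw counts per gene identifier, whole numbers without normalisation, in 1 column for each of 6 libraries. HISAT2 is named in the submitters' processing notes. No source used here gives the counting program, genome build, annotation or strand setting, so reads of a gene and its antisense partner could not be separated. Sample titles supplied the groups and the replicate numbers. No library was a copy of another, as the counts of every pair differed beyond sampling noise, with chi-square values per degree of freedom between 4.12 and 16.4.

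Levels are CPM by library total. Tests used edgeR 4.0.16 in R 4.3.3 (filterByExpr with min.count 10 and min.total.count 15, TMM, quasi-likelihood test, two-sided, Benjamini-Hochberg over 50136 genes, threshold 0.05), with intervals from the same fit. Sums and ratios were computed in Python 3.11.15; single ratios were compared with exact permutation tests in scipy 1.17.1, and sums over the 2 genes are given without a p. The principal components used log2 CPM with a prior count of 2. For the log2 SD ranks, 0.5 CPM was added. The edgeR fit was also run on simulated counts.

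Named genes were the 2 members, listed genes as examples, the 3 most alike named genes for each, and neighbours in level. The members and lists were chosen with earlier results of these data known. Alternatives were DESeq2 1.42.0 (size factors and Wald test), upper quartile scaling, library size alone, other filters, limma-voom (limma 3.58.1), the replicate number as a block, totals without the 100 most abundant genes, and each library left out. Samples with the same number were not treated as pairs.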

Additional observations from a re-analysis of the deposited data

How the results depend on the processing

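Neither AVNLA nor GLU-D1-2B was called under any of the 16 alternatives run for each. Replicates 1 and 2 only, a setting chosen after seeing the data, put AVNLA at -0.21 (log2 fold change, unadjusted p = 0.00554 in edgeR, adjusted p = 0.785), the reverse of the 0.16 of all libraries. With 1 library left out at a time, log2 fold changes ran from -0.28 to 0.34 for AVNLA, negative only without SPD replicate 3, and from -0.64 to 0.07 for GLU-D1-2B, positive without CK replicate 2, SPD replicate 1 or SPD replicate 2. The summed CPM difference ran from -654.9 to 926.3, against 396.9 with all libraries. The log2 ratio to puroindolines ran from -0.21 to 0.25 and that to starch synthesis genes from -0.27 to 0.34, all 3 of these negative only without SPD replicate 3, and the AVNLA to GLU-D1-2B ratio from 0.03 without CK replicate 2 to 0.55 without CK replicate 1. Log2 SDs ran from 0.0044 to 0.714 (SPD) and 0.073 to 0.164 (CK) for AVNLA, and from 0.0032 to 0.824 (SPD) and 0.098 to 0.657 (CK) for GLU-D1-2B. The count of called genes was 0, with 3 by the Wald test of DESeq2, 1 with replicates 1 and 2 only, and 0 to 1 with 1 library left out. Limma-voom gave 0.05 for AVNLA and -0.23 for GLU-D1-2B; the cause was not tested. Of all 95 alternative values, 80 kept their direction and side of the threshold or stayed within 1.5-fold. For the sums and ratios that side was fixed in advance, as exact tests of so few libraries allow no p below 0.1. Only their direction could change, so the 80 says little about their size.

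Deviations from the group means were hardly correlated between libraries that share a number (-0.058 to 0.016), and own-number correlations were the highest for number 1 only. With the replicate block, the log2 fold change was 0.07 for AVNLA and -0.18 for GLU-D1-2B, and 0 genes were called. GLU-D1-2B had 31 to 60 counts, and its fitted interval holds both counting error and variation between libraries.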

Other observations

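GLU-D1-2B, at 31 to 60 counts per library, was ranked by counts between 26116 and 36692. High molecular weight glutenin subunits are known as abundant proteins of the wheat endosperm, while PINA, PINB, WAXY and AVNLA, also of the endosperm, were each at 1755 CPM or more in every library. How reads of near-identical glutenin copies were assigned is not stated in the sources, and its part in the low counts was not tested.

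In both genes SPD replicates 1 and 2 agreed closely, at 3131 and 3117 CPM for AVNLA and 2.53 and 2.54 CPM for GLU-D1-2B. The exact binomial 95% intervals of GLU-D1-2B there, 1.72 to 3.60 and 1.75 to 3.57 CPM, are much wider than that gap.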
